A study of Mus musculus with 72 samples.

Results

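The 35 genes described here encode enzymes and carriers of fatty acid oxidation and ketogenesis, and they were picked by symbol from the 27846 genes of the deposited table of read counts. All 35 were found once in the table and all passed the filter on low counts, as did 15066 genes in all. By role they are 4 acyl-CoA synthetases (Acsl1, Acsl3, Acsl4 and Acsl5), 3 carnitine acyltransferases (Cpt2, Crat and Crot), 5 acyl-CoA dehydrogenases (Acadm, Acadl, Acadvl, Acads and Acad11), and 5 enzymes of the later mitochondrial steps (Hadha, Hadhb, Hadh, Echs1 and Acaa2). The others are 5 auxiliary enzymes for unsaturated fatty acids (Ech1, Eci1, Eci2, Decr1 and Decr2), 3 genes of electron transfer (Etfa, Etfb and Etfdh), 8 peroxisomal genes (Acox2, Ehhadh, Hsd17b4, Acaa1a, Acaa1b, Scp2, Acot8 and Pex11a) and 2 enzymes of ketone body metabolism (Bdh1 and Acat1). The members do not include Cpt1a, which admits long-chain fatty acids to the mitochondrion and was read separately as a neighbour in the same pathway.

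The livers came from wild-type C57bl6 mice aged 8 to 16 weeks, in 4 sets of 18: misaligned females, misaligned males, control females and control males. Each set held 3 livers at each of 6 clock times (00:00, 04:00, 08:00, 12:00, 16:00 and 20:00), which the study's design names biological replicates. All mice, controls included, ate a high-fat diet with 42% of calories as fat during the experiment and lived under 12 h of light and 12 h of dark. The labels call a mouse misaligned or control without describing the schedule that misaligned it, and they do not say when the lights went on, so clock times below are the stated ones.

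Fatty acids are activated to acyl-CoA by the acyl-CoA synthetases and cross into mitochondria as carnitine esters, where a dehydrogenase, a hydratase, a second dehydrogenase and a thiolase shorten them in repeated cycles. Electrons leave the first step through the electron transfer flavoprotein, and auxiliary enzymes prepare double bonds for the cycle. Peroxisomes shorten very long and branched chains and bile acid precursors with their own enzymes. The liver turns the resulting acetyl-CoA into ketone bodies during fasting, and many of these genes are targets of the nuclear receptor PPARA. Feeding and the circadian clock both impose daily rhythms on liver lipid metabolism.

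Library totals were nearly equal, from 11551524 to 12529963 uniquely assigned sense counts, and the members averaged from 139 counts per library for Acot8 to 42040 for Scp2. Within each sex and treatment, the median rank correlation of a library with the others of its set was at least 0.963, and no pair of replicates agreed to within counting noise. All 7 hepatocyte markers were abundant in every set, and the markers of fat, muscle and kidney summed to at most 1.195 CPM (counts scaled to library size) in any liver. The 2 pancreas markers found summed to medians of 7.14 CPM in misaligned females, 11.3 in misaligned males, 6.86 in control females and 11.7 in control males. Their highest sum was 19.8 CPM, in a control male. The labels give no batch. The stated clock time did not describe the clock of every liver. Molecular time, read from 14 core clock genes of the same libraries against the control curve of the same sex, lay more than 4 h from the stated time in 15 of 18 misaligned males and 2 of 18 misaligned females, and in 0 of 18 livers of each control set. The mean offset, molecular minus stated time, was 2.29 h in misaligned females, against -0.03 h in each control set. It was -7.34 h in misaligned males, where single livers scattered widely. Rhythm results for misaligned mice are therefore given on both time scales.

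The peroxisomal membrane protein Pex11a, the enoyl-CoA isomerase Eci2 and the peroxisomal dienoyl-CoA reductase Decr2 were rhythmic together in 3 of the 4 sets. The sequences around their RefSeq start sites (build GRCm38.p6, 250 bases upstream in lower case and the first 50 transcribed bases in capitals, 5′ to 3′ on the gene's strand) are shown because these genes carry the main result. The windows lie at chr7:79743082-79743381 for Pex11a, chr13:34994095-34994394 for Eci2 and chr17:26090115-26090414 for Decr2, all on the minus strand.
Pex11a: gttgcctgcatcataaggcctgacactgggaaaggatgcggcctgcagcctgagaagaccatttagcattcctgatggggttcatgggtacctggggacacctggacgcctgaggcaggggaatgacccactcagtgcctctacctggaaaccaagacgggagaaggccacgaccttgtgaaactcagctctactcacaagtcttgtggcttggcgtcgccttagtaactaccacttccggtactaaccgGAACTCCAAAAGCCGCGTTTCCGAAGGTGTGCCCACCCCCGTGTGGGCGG
Eci2: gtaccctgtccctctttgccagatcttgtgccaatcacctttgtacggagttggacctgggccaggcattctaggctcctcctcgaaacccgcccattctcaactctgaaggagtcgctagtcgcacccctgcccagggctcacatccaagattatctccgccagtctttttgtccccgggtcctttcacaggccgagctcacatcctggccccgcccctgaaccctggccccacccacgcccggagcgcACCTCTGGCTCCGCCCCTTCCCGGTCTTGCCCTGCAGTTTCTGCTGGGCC
Decr2: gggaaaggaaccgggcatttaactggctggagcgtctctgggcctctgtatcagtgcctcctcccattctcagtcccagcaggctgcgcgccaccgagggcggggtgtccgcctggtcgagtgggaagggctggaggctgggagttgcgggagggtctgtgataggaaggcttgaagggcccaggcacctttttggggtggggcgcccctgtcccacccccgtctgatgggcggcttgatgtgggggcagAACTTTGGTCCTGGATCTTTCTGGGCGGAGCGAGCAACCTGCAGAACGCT
RefSeq start sites were matched for 30 of the 35 members, with 33 windows in all. The direct repeat bound by PPARA with RXR, the E-box CACGTG, the D-box TTANGTAA and the RORE were searched as fixed consensus letters on both strands, and each occurred in 0 of the 33 windows. Among all 32851 RefSeq windows of the same length, 0.381%, 7.15%, 2.32% and 0.219% held them, in that order. The median GC content was 58.7% over the members' windows and 52.7% over all windows.

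The members differed widely in level. Per kilobase of merged exons, averaged over all 72 livers, Scp2, which encodes sterol carrier protein 2 and a peroxisomal thiolase, stood at 1327 CPM per kb, and Acaa1b, a peroxisomal thiolase, stood at 1294 CPM per kb. The next was Acaa2, the mitochondrial thiolase, at 660.3 CPM per kb. At the low end were Acot8, a peroxisomal acyl-CoA thioesterase, at 10.1 CPM per kb, and Acsl4, a synthetase that prefers arachidonic acid, at 8.08 CPM per kb. By set, Scp2 averaged 1007 ± 127 CPM per kb in misaligned females, 1699 ± 134 in misaligned males, 982 ± 110.2 in control females and 1622 ± 142 in control males (SD, n = 18 each). Acaa1b averaged 1177 ± 300.2 CPM per kb in misaligned females, 1505 ± 345 in misaligned males, 1168 ± 319.8 in control females and 1325 ± 318 in control males. The spreads of Acaa1b overlapped between all 4 sets, and those of Scp2 did not overlap between females and males. Acot8 averaged 10.6 ± 2.37 CPM per kb in misaligned females, 10.4 ± 2.34 in misaligned males, 9.67 ± 2.25 in control females and 9.81 ± 2.31 in control males. Acsl4 averaged 6.45 ± 1.39 CPM per kb in misaligned females, 10.5 ± 2.15 in misaligned males, 6.08 ± 0.895 in control females and 9.28 ± 2.08 in control males.

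**Figure D1:**
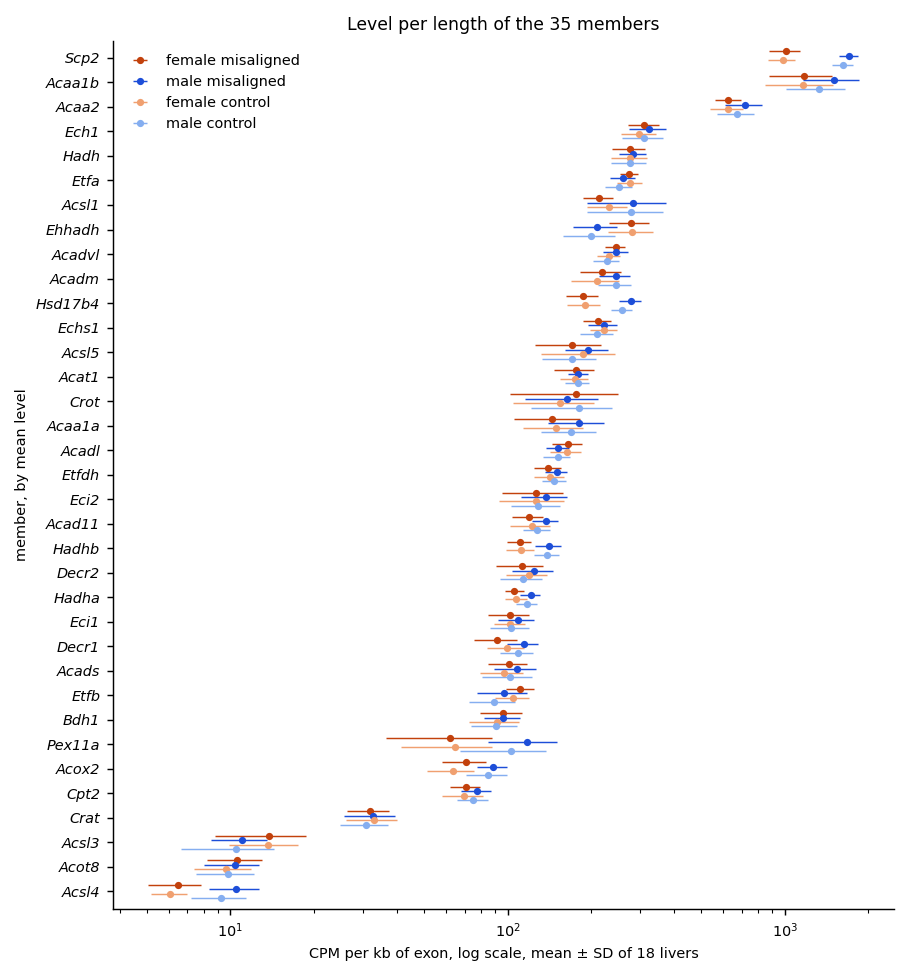
Level of each of the 35 members in CPM per kilobase of merged exons on a log axis, as mean ± SD of 18 livers in each set of sex and treatment. Scp2 and Acaa1b stood highest, at 1327 and 1294 CPM per kb over all livers, and Acsl4 lowest at 8.08 CPM per kb.

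In misaligned females, 8 of the 35 members were rhythmic, against 7.69% of all genes tested (24 h cosine, edgeR quasi-likelihood test with Benjamini-Hochberg adjustment below 0.05, as in all tests below). In control females 7 of 35 were rhythmic, against 12% of all genes. Control males had 5 of 35, against 10.8%. Pex11a, which promotes division of peroxisomes, Eci2, which moves double bonds in unsaturated acyl chains, and Decr2, which reduces them in peroxisomes, were rhythmic in all 3 of these sets. The fitted peaks of most members lay in one part of the day, with members not called included. They lay between 06:00 and 18:00 for 30 members in misaligned females, 27 in control females and 30 in control males. Of all genes 46.4%, 49.87% and 48.72% peaked there. These counts were not tested, since the members vary together within a liver. The peak of a member with a weak rhythm is poorly determined: the female peak shift of Scp2 had an SE of 14.97 h.

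Pex11a had the widest daily range of these 3 genes in each of the 3 sets. In misaligned females it had 151, 238 and 172 CPM at 08:00 and 221, 173 and 278 CPM at 12:00, against 105, 86.2 and 83.0 CPM at 00:00. In control females it had 250, 186 and 139 CPM at 08:00 and 186, 154 and 183 CPM at 12:00, against 107, 100.8 and 103 CPM at 00:00. In control males it had 307, 241 and 287 CPM at 08:00 and 365, 382 and 312 CPM at 12:00, against 163, 162 and 133 CPM at 00:00. In each of these sets all 6 livers of 08:00 and 12:00 lay above all 3 of midnight. The fitted peaks were at 10.8 ± 0.63 h in misaligned females (adjusted p = 4.01e-05), 12.4 ± 0.77 h in control females (adjusted p = 0.0012) and 12.1 ± 0.69 h in control males (adjusted p = 0.000259), as edgeR fits ± SE. The fitted peak was 2.47 times the trough in misaligned females, 2.10 times in control females and 2.27 times in control males.

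Eci2 and Decr2 followed the same course with smaller swings. Eci2 had 320.1, 300 and 232 CPM at 08:00 in misaligned females, against 214, 133 and 141 CPM at 20:00. Its amplitude, from mean to peak in log2, was 0.40 ± 0.08 in misaligned females, 0.39 ± 0.08 in control females and 0.32 ± 0.08 in control males (SE), with edgeR adjusted p of 0.000754, 0.000654 and 0.0107. Decr2 had amplitudes of 0.32 ± 0.06, 0.27 ± 0.06 and 0.27 ± 0.06 in the same order, with adjusted p of 0.000341, 0.00299 and 0.00338 from edgeR. The control male call of Eci2 was lost with a test across the 6 clock times (0.0818) and without replicate number 1 (0.133) or 2 (0.345). That of Decr2 was lost without number 1 (0.137) or 2 (0.194). Without number 2 the control female calls were lost as well, at 0.0863 for Eci2 and 0.211 for Decr2, all by edgeR.

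Bdh1, which interconverts acetoacetate and 3-hydroxybutyrate, peaked earlier. Its fitted peak was at 6.22 ± 1.1 h in misaligned females, 7.11 ± 0.82 h in control females and 8.82 ± 0.88 h in control males (edgeR adjusted p = 0.0415, 0.00219 and 0.00587). The misaligned female call was lost without 1 liver of 04:00 (replicate 1 or 3), 08:00 (replicate 2), 16:00 (replicate 1 or 2) or 20:00 (any), with an adjusted p of up to 0.122 by edgeR. Control males had 448, 418 and 404 CPM of Bdh1 at 08:00, against 286, 232 and 319 CPM at 20:00, and those groups did not overlap. The control male call was lost with a test across the 6 clock times (0.0542) and without replicate number 1 (0.0635) or 2 (0.179). That of control females was lost without number 1 (0.157), all by edgeR.

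The other members called at stated clock times were each rhythmic in 1 set. Crot, the peroxisomal carnitine octanoyltransferase, peaked at night in misaligned females, at 23.1 ± 0.80 h with an amplitude of 0.64 ± 0.14 (edgeR adjusted p = 0.0035). It had 615, 782 and 898 CPM there at 00:00, against 367, 214 and 296 CPM at 12:00, with no overlap. Decr1, the mitochondrial dienoyl-CoA reductase (adjusted p = 0.00734), Acadl, the long-chain acyl-CoA dehydrogenase (0.012), and Acad11, another acyl-CoA dehydrogenase (0.0243), were also called by edgeR in misaligned females, with peaks between 8.78 and 10.5 h. Without 1 female liver the call was lost for Decr1 (misaligned 12:00 replicate 3, adjusted p = 0.0566) and for Acad11 (misaligned 08:00 replicate 2 or 3, or 20:00 replicate 3, up to 0.0614). With the test across the 6 clock times, Decr1 (0.134), Acadl (0.194) and Acad11 (0.201) were not called by edgeR. Without replicate number 1 the adjusted p were 0.081 for Decr1, 0.139 for Acadl, 0.109 for Acad11 and 0.0901 for Crot. In control females the synthetase Acsl5 peaked at 1.04 ± 0.84 h (0.00282), Cpt2, the inner carnitine palmitoyltransferase, at 13.5 ± 1.00 h (0.0229), and Acox2, the branched-chain acyl-CoA oxidase, at 22.3 ± 1.01 h (0.0247), with edgeR adjusted p in brackets. The call of Cpt2 was lost without control female 00:00 replicate 1 or 2, 04:00 replicate 3 or 16:00 replicate 2 (up to 0.0904), and that of Acox2 without any liver of control female 12:00 or 20:00 replicate 3 (up to 0.0994). The count of 7 in control females was 11 without control female 16:00 replicate 1 or control male 20:00 replicate 2. In control males Acsl1, the main hepatic synthetase, peaked at 13.5 ± 0.90 h (adjusted p = 0.00915). Its call was lost with only the libraries compared (0.0515) and without replicate number 1 (0.179) or 3 (0.0563), by edgeR. The control female call of Acsl5 was lost without number 1 (0.12) or 2 (0.14).

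**Figure D2:**
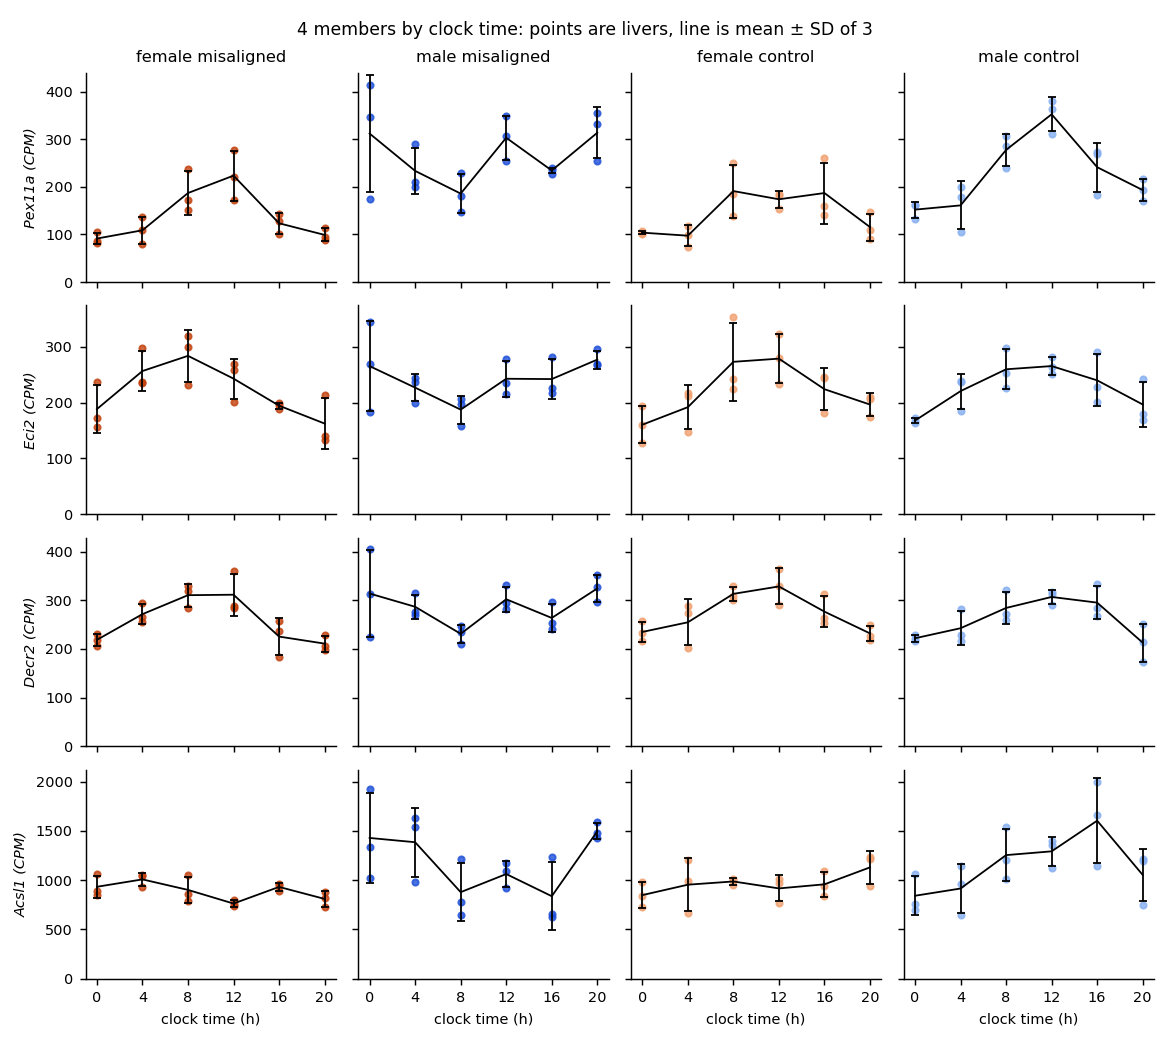
Pex11a, Eci2, Decr2 and Acsl1 in CPM against stated clock time in h, with 1 column per set of sex and treatment, points for livers and a line with bars for mean ± SD of 3. Pex11a reached 382 CPM at 12:00 in control males, where misaligned males had 349, 256 and 306 CPM, and misaligned males had 414 and 348 CPM in 2 livers at 00:00.

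At the stated clock times, misaligned males had no rhythmic member: 0 of 35 were called by edgeR, with 3 at an unadjusted p below 0.05, and 0 by DESeq2. Over all genes 0.00664% were called, which is 1 gene. The smallest adjusted p were those of Acsl1 (0.228), Eci2 (0.514) and Decr2 (0.605). Only 6 of the 35 fitted peaks lay between 06:00 and 18:00 in misaligned males, against 30 in control males, while 48.6% and 48.72% of all genes peaked there. This count was not tested, since the members vary together within a liver. The median amplitude of the members was 0.10 in misaligned males and 0.16 in control males, and the medians over all genes were 0.13 and 0.17.

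**Figure D3:**
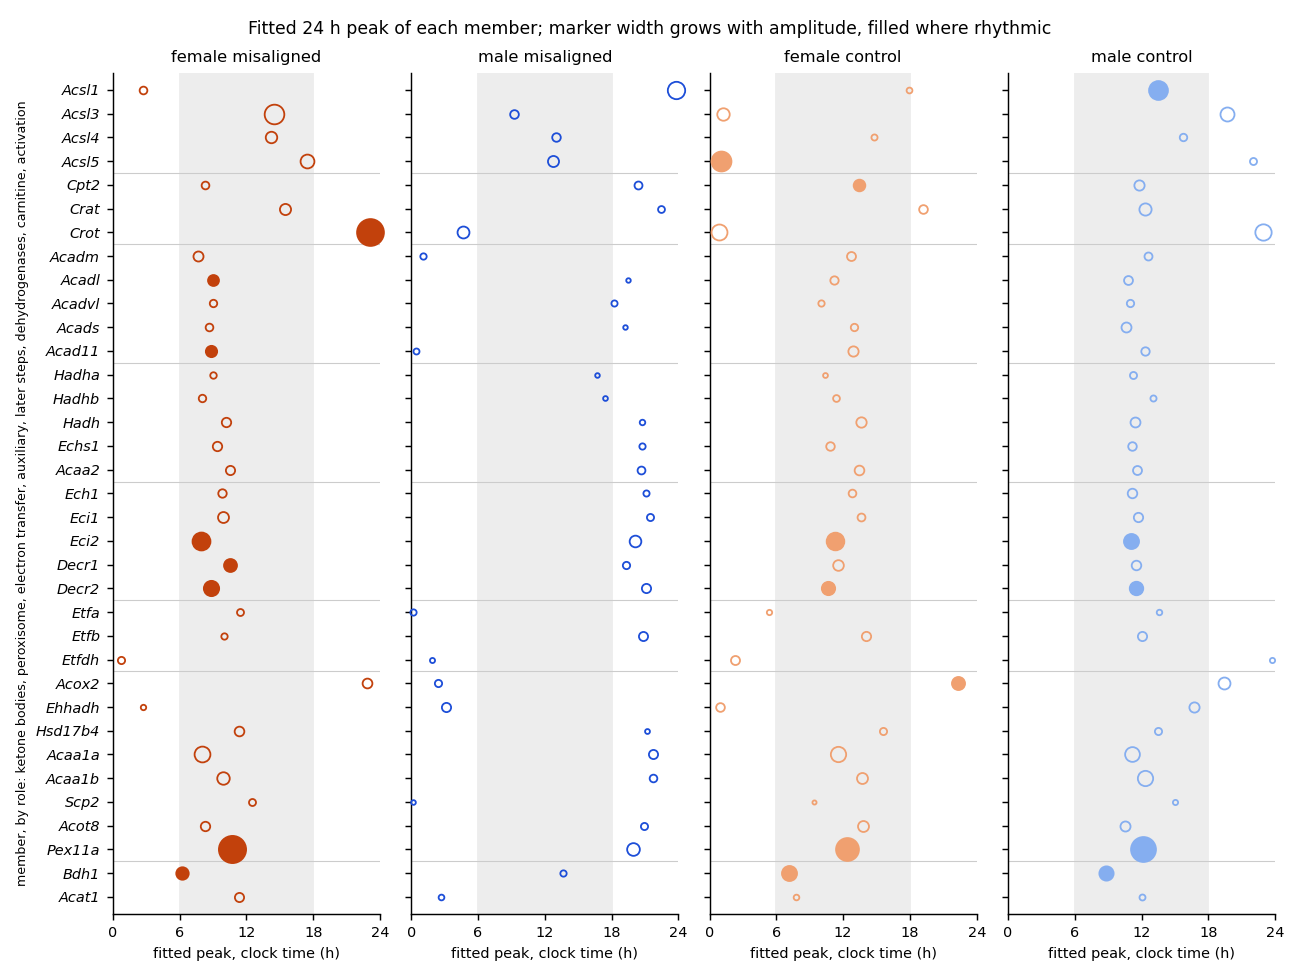
Fitted 24 h peak of each member in h of stated clock time, by set of sex and treatment, with the shaded part from 06:00 to 18:00, filled marks for members called rhythmic and wider marks for larger amplitudes. In misaligned males 6 of 35 marks lay in the shaded part, against 30 in misaligned females, 27 in control females and 30 in control males.

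The rhythm of 4 members changed with misalignment in males, and by the same test 9.23% of all genes did, so the share among the members is close to that over all genes. These were Acsl1 (edgeR adjusted p = 0.000402), Pex11a (0.00161), Decr2 (0.00209) and Eci2 (0.00355). Their peaks moved by 10.3 ± 1.35 h for Acsl1, 7.77 ± 1.76 h for Pex11a, 9.63 ± 1.68 h for Decr2 and 9.12 ± 1.59 h for Eci2 (SE). Each of the 4 kept its call when any 1 of the 72 livers was left out, and the count was 8 without misaligned male 00:00 replicate 3. None of the 4 was called in the livers left without replicate number 1, where the adjusted p were 0.068 to 0.228 by edgeR. Without number 2, Eci2 (0.172), Decr2 (0.163) and Pex11a (0.0802) were not called either.

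Acsl1 had the largest peak shift of the 4. At 00:00 it had 1928, 1333 and 1024 CPM in misaligned males, against 697, 760.2 and 1066 CPM in control males. At 20:00 it had 1476, 1425 and 1587 CPM in misaligned males, against 1218, 748 and 1192 CPM in control males, with no overlap. At 16:00 it had 652, 624 and 1233 CPM in misaligned males, against 1148, 1662 and 2001 CPM in control males, so 2 of the 3 misaligned livers lay below every control liver. The log2 difference, misaligned minus control, was 0.74 at 00:00, 0.60 at 04:00, -0.55 at 08:00, -0.28 at 12:00, -0.98 at 16:00 and 0.54 at 20:00.

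Pex11a had 414, 348 and 175 CPM at 00:00 in misaligned males, against 163, 162 and 133 CPM in control males, so every misaligned liver was higher. At 08:00 it had 230.1, 147 and 181 CPM in misaligned males, against 307, 241 and 287 CPM in control males, so every misaligned liver was lower. At 16:00 both sets overlapped, with 239.6, 228 and 236 CPM in misaligned males, against 269, 182 and 273 CPM in control males. Eci2 and Decr2 crossed at the same times. Eci2 had 345, 269 and 183 CPM at 00:00 and 206, 198 and 159 CPM at 08:00 in misaligned males, against 173, 163 and 168 CPM at 00:00 and 254, 299 and 227 CPM at 08:00 in control males. Decr2 had 404, 312 and 225 CPM at 00:00 and 247, 236 and 211 CPM at 08:00 in misaligned males, against 216, 229 and 221 CPM at 00:00 and 272, 321 and 260.4 CPM at 08:00 in control males. At these hours misaligned and control males overlapped for Decr2 at 00:00 and for neither gene elsewhere. The lowest misaligned value of each gene at midnight came from the liver whose molecular time was 22.6 h, while the other misaligned male livers of that hour stood at 13.0 and 12.7 h.

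A test with no assumed cosine asked whether the male difference was equal at all 6 clock times. It called 7 members, and 9.26% of all genes: Acsl1 (edgeR adjusted p = 0.000812), Decr2 (0.00574), Pex11a (0.00676), Eci2 (0.031), the mitochondrial thiolase Acaa2 (0.0374), the flavoprotein subunit Etfb (0.0403) and the peroxisomal thiolase Acaa1a (0.0446). The count fell to 3 without misaligned male 08:00 replicate 3 or 20:00 replicate 3, or control male 08:00 replicate 2 or 20:00 replicate 1 or 2. It was 4 without misaligned male 16:00 replicate 1 or 2 or 20:00 replicate 2, or control male 08:00 replicate 1 or 16:00 replicate 3. The calls of Eci2, Acaa2, Etfb and Acaa1a were each lost without any of 7 to 23 single livers, while those of Acsl1, Decr2 and Pex11a were kept with any 1 of the 72 left out. Without replicate number 1 those 3 calls were lost (0.0989, 0.13 and 0.094). Decr2 was also lost without number 2 (0.411) and with only the libraries compared (0.0516), and Pex11a without number 2 (0.251), all by edgeR. Misaligned minus control, Acaa1a differed by 0.75, Etfb by 0.69 and Acaa2 by 0.61 log2 at 20:00, the highest of their 6 clock times.

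In females, 0 members had a changed rhythm by edgeR, with 5 at an unadjusted p below 0.05, against 0.192% of all genes called, and DESeq2 called 1. Without any of 8 single livers edgeR called 1: misaligned female 04:00 replicate 2, 08:00 replicate 3 or 16:00 replicate 3, control female 08:00, 12:00 or 16:00 replicate 3, and control male 16:00 replicate 2 or 20:00 replicate 3. The smallest adjusted p were those of Acsl5 (0.07), the low-abundance synthetase Acsl3 (0.258) and Eci2 (0.377). Acsl5 had 824, 643 and 575 CPM at 00:00 in misaligned females, against 1299, 1028 and 891 CPM in control females, with no overlap. Acsl3 had 50.4, 38.0 and 41.9 CPM at 00:00 in misaligned females, against 94.8, 62.8 and 56.0 CPM in control females, also with no overlap. The clock-time test called 0 members in females by edgeR, with 4 at an unadjusted p below 0.05 and 0 by DESeq2, against 0.0332% of all genes. Its smallest adjusted p were 0.496 for Acsl5, 0.702 for Acsl3 and 0.834 for Acox2. The female peaks of Eci2, Decr2 and Pex11a lay 3.38 ± 1.05 h, 1.83 ± 1.09 h and 1.63 ± 0.99 h earlier in misaligned than in control livers, with none of the 3 called.

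The change itself was compared between the sexes. Pex11a passed this test (edgeR adjusted p = 0.0222), as did 1.73% of all genes, while Eci2 (0.055) and Decr2 (0.0627) did not. Pex11a kept this call with any 1 of the 72 livers left out, with adjusted p between 0.00672 and 0.0425. It lost the call with the test across the 6 clock times (0.0999) and without replicate number 1 (0.137), 2 (0.349) or 3 (0.115), by edgeR. The count of 1 was 2 or 3 without any of 15 single livers. It was 3 without misaligned male 00:00 replicate 3, 12:00 replicate 3 or 16:00 replicate 2, or control male 08:00 or 16:00 replicate 3. It was 2 without misaligned female 00:00 replicate 2, 08:00 replicate 3, 12:00 replicate 2 or 20:00 replicate 1, misaligned male 04:00 replicate 2, control female 00:00 replicate 2, 08:00 replicate 3 or 16:00 replicate 1, or control male 04:00 replicate 2 or 20:00 replicate 3.

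Misaligned females and misaligned males were also compared directly. The rhythms of Pex11a (edgeR adjusted p = 0.000193), Eci2 (0.000238), Decr2 (0.000242) and Decr1 (0.0189) differed between them, and 7.25% of all genes did. This comparison shares its livers with the tests of change above. The Decr1 call was lost without misaligned female 12:00 replicate 3 or misaligned male 00:00 replicate 1 (up to 0.0541), and without misaligned male 00:00 replicate 3 the count was 10. Between control females and control males 0 members differed in rhythm by edgeR, with 2 at an unadjusted p below 0.05 and 0 by DESeq2, and 0% of all genes were called. The smallest adjusted p there were 0.89 for Acsl5, 0.92 for Acsl1 and 1 for Crat, the carnitine acetyltransferase.

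Arranged by molecular time, 6 of 35 members were rhythmic in misaligned males, against 11.5% of all genes: Acsl1 (edgeR adjusted p = 0.00104), Decr2 (0.00274), Pex11a (0.00464), Etfb (0.016), Eci2 (0.0212) and Crot (0.0316). The call was lost without 1 misaligned male liver for Etfb (08:00 or 20:00 replicate 3, up to 0.0666), Eci2 (00:00 replicate 1 or 3 or 08:00 replicate 3, up to 0.0802) and Crot (00:00 replicate 3, 04:00 replicate 1 or 2, 12:00 replicate 1 or 20:00 replicate 3, up to 0.0881). None of the 6 was called in the livers left without replicate number 3, where the adjusted p were 0.102 to 0.398 by edgeR. Acsl1 (0.113), Decr2 (0.13) and Pex11a (0.137) were among them. The fitted peaks in misaligned males lay between 06:00 and 18:00 of molecular time for 28 of 35 members, against 30 in control males. Of all genes 49.02% and 50.72% peaked there. The peak of Pex11a was at 12.5 ± 0.88 h in misaligned males and 12.0 ± 0.63 h in control males, and that of Eci2 at 11.3 ± 0.78 h and 11.2 ± 0.82 h. Acsl1 peaked at 14.7 ± 1.14 h in misaligned males and 13.7 ± 0.80 h in control males, and Decr2 at 12.2 ± 0.80 h and 11.5 ± 0.81 h. The amplitude of Pex11a was 0.50 ± 0.12 in misaligned males and 0.59 ± 0.11 in control males.

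By molecular time 0 members changed rhythm in males by edgeR, with 0 at an unadjusted p below 0.05 and 0 by DESeq2, and 0% of all genes were called. The smallest adjusted p was 0.909, shared by Acsl4, Acot8 and Etfb. The male peak shifts were then 1.00 ± 1.39 h for Acsl1, 0.47 ± 1.08 h for Pex11a, 0.76 ± 1.14 h for Decr2 and 0.06 ± 1.13 h for Eci2, each smaller than its SE, and shifts of the size of these errors could not be seen. In misaligned females 10 of 35 members were rhythmic by molecular time, against 10.7% of all genes, among them Pex11a (2.28e-05), Decr2 (4.63e-05), Crot (0.000123), Eci2 (0.000288), Decr1 (0.00594) and Acadl (0.00839, all edgeR adjusted). In females 0 members changed rhythm by molecular time by edgeR, with 2 at an unadjusted p below 0.05 and 0 by DESeq2, against 0.00664% of all genes, and the smallest adjusted p were those of Acsl3 (0.416), Acsl5 (0.464) and Crot (0.988). Molecular time comes from clock genes of the same libraries, so both rest on the same RNA.

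**Figure D4:**
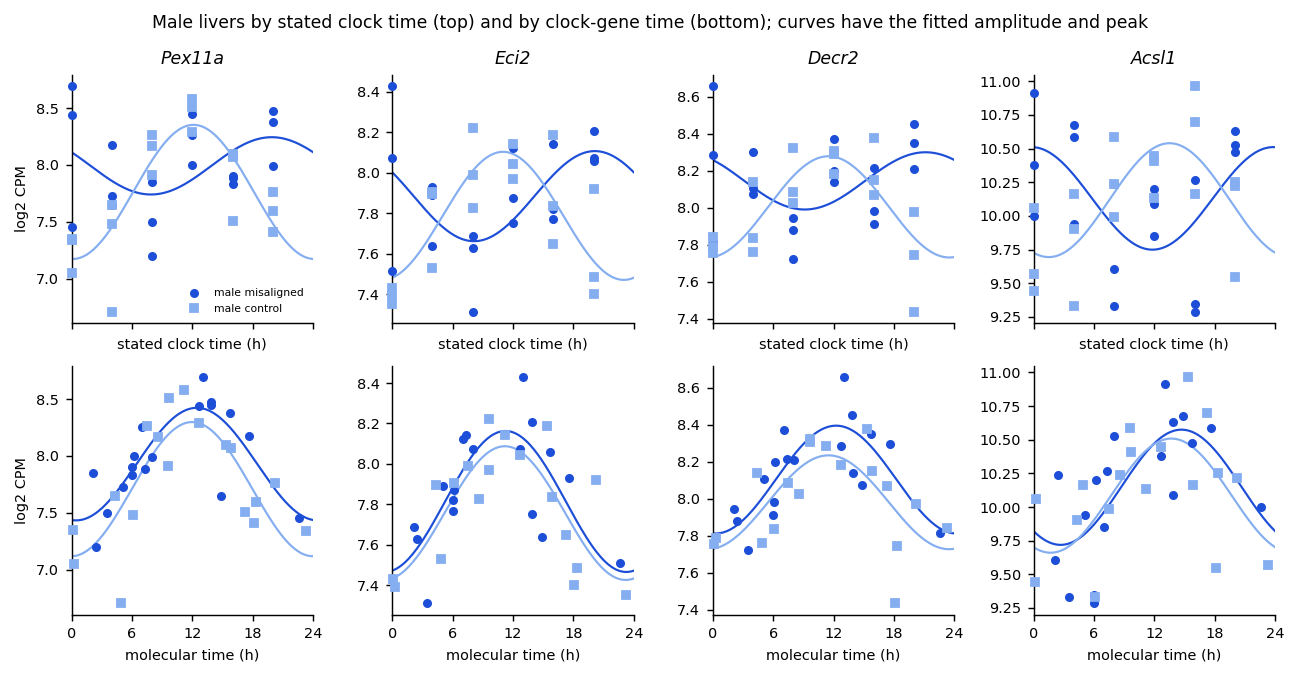
Log2 CPM of Pex11a, Eci2, Decr2 and Acsl1 in each male liver, misaligned as circles and control as squares, against stated clock time in h (top) and molecular time in h (bottom), with fitted 24 h curves. For Pex11a the fitted peaks of misaligned and control males were at 19.9 h and 12.1 h of stated time, and at 12.5 h and 12.0 h of molecular time.

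Reads within introns, which come largely from unspliced transcripts, gave another readout of the same genes at lower depth, with 829393 to 876911 counts per library. In control females 1 member was rhythmic in intron counts, against 3.93% of genes tested: Bdh1 (edgeR adjusted p = 0.0346), followed by Pex11a (0.0626) and Acad11 (0.151), which were not called. In control males 3 members were rhythmic, against 2.51% of genes: Acaa1b (0.0048), Bdh1 (0.00958) and Acsl1 (0.0222, edgeR). Intron counts of Bdh1 peaked at 8.92 ± 0.83 h in control males, where its gene counts peaked at 8.82 ± 0.88 h. Acsl1 changed its intron rhythm in males (edgeR adjusted p = 0.0167), as 1.8% of genes did, with Acaa1b at 0.0594 and Decr2 at 0.0895. Its intron peak was at 23.5 ± 1.95 h in misaligned males and 12.6 ± 0.88 h in control males. In females 0 members changed in introns by edgeR, with 4 at an unadjusted p below 0.05 and 0 by DESeq2, 0% of genes being called, and the smallest adjusted p were 0.222 for Acsl5, 0.656 for Pex11a and 0.725 for Scp2.

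The mean level over the 6 clock times changed in no member in either sex. In females 0 of 35 were called by edgeR, with 1 at an unadjusted p below 0.05 and 0 by DESeq2, and 0.00664% of all genes were called. In males 0 of 35 were called by edgeR, with 4 at an unadjusted p below 0.05 and 0 by DESeq2, and 0% of all genes. The female differences, misaligned minus control in log2, had 17 positive signs and a median of -0.003 over the members. The smallest female p belonged to Acox2, at 0.17 ± 0.06 (SE, edgeR adjusted p = 0.66), then Decr1 at -0.12 ± 0.06 (0.758) and Acadvl, the very long-chain dehydrogenase, at 0.08 ± 0.05 (0.804).

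In males 34 of the 35 differences were positive and Crot alone was negative, at -0.12 ± 0.13. The median was 0.08 over the members and 0.01 over all genes, of which 52.6% were positive. The 3 smallest p belonged to Decr2 at 0.14 ± 0.06 (edgeR adjusted p = 0.758), Acadvl at 0.11 ± 0.05 (0.762) and Pex11a at 0.24 ± 0.10 (0.762), of which Pex11a had the largest difference of all 35. No test was made of this count, since the members vary together within a liver and their signs are not independent. In no member was the male difference positive at all 6 clock times. It was positive at 3 of the 6 for Decr2, 4 for Acadvl and 3 for Pex11a. At 08:00 these stood at -0.295, -0.045 and -0.595 log2, against 0.62, 0.475 and 0.691 at 20:00. Of the 18 livers in each set, 12 misaligned males and 10 control males had a molecular time between 06:00 and 18:00. Most members had their fitted peak there. An alternative chosen after seeing the data put a curve by molecular time in the fit. There 34 of 35 differences were positive, with a median of 0.07, as were 49.74% of all genes. By that fit 0 members were called. The part of clock phase in these signs was not tested. In whole liver, fewer cells of a type and less RNA per cell cannot be told apart. The mean change differed between females and males for 0 members by edgeR, with 5 at an unadjusted p below 0.05 and 0 by DESeq2, and 0% of all genes were called. The smallest adjusted p there were 0.808 for Decr2, 0.836 for Pex11a and 0.841 for Decr1, each with a female change below the male one.

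**Figure D5:**
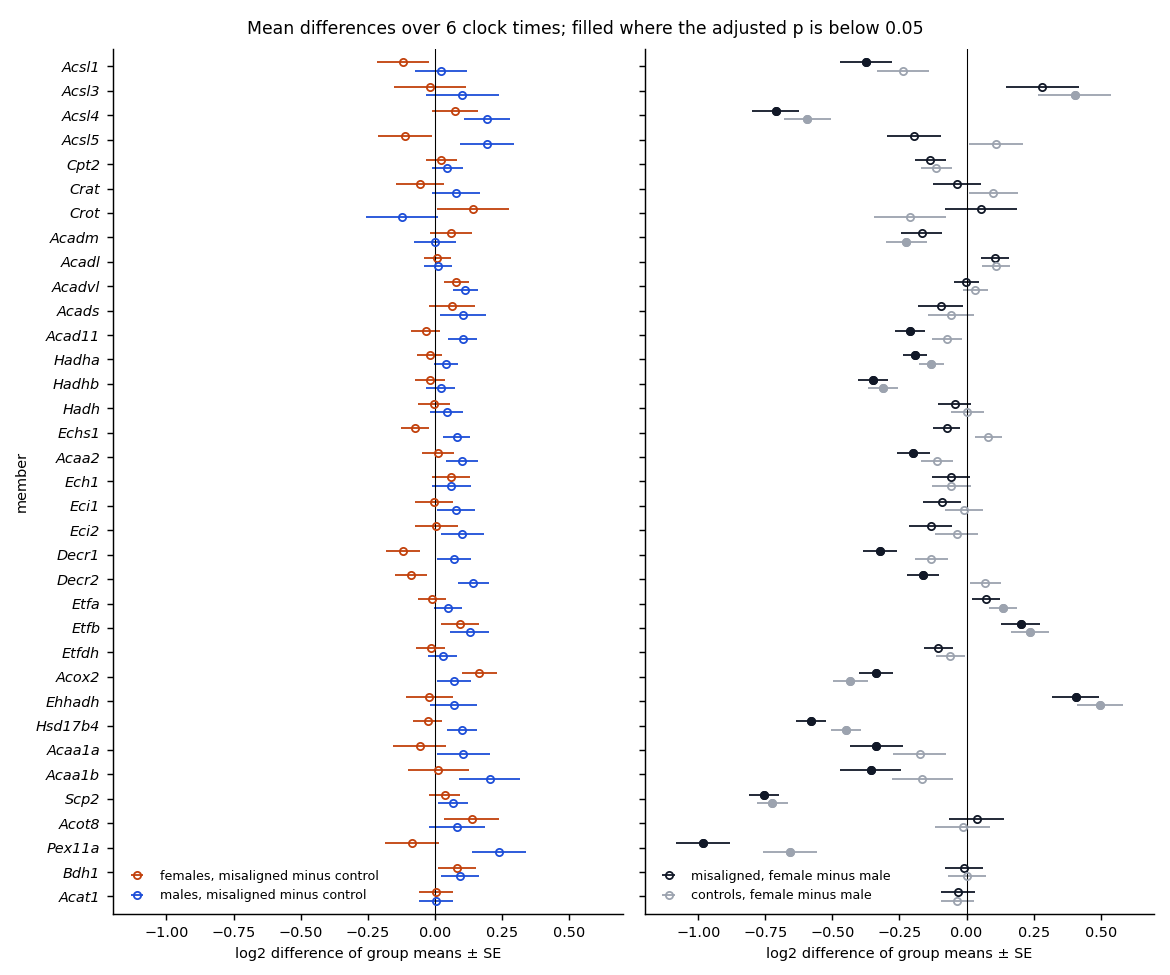
Mean log2 difference of each member over the 6 clock times, misaligned minus control in females and in males on the left, and female minus male in misaligned and in control mice on the right, as edgeR estimates ± SE with filled marks for adjusted p below 0.05. No mark is filled on the left, and 16 misaligned and 12 control marks are filled on the right.

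The clearest mean differences lay between the sexes. In misaligned mice 16 members differed between females and males, 2 higher and 14 lower in females, against 37.7% of all genes (17.8% higher and 19.9% lower). In control mice 12 members differed, 4 higher and 8 lower in females, against 32.9% of all genes (16% higher and 17% lower). The share of control calls is near that of all genes. The median female minus male difference over the members was -0.13 in misaligned and -0.06 in control mice, against 0.01 over all genes in each. Of the 8 genes grouped as peroxisomal, 7 differed in misaligned and 5 in control mice. These 8 are not all the peroxisomal members, since some, Decr2 and Crot among them, were grouped under other roles. Decr2 differed in misaligned mice only and Crot in neither.

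Scp2 was lower in females, with a female minus male difference of -0.76 ± 0.06 log2 (SE) in misaligned mice (edgeR adjusted p = 4.6e-16) and -0.72 ± 0.06 in control mice (2.22e-15). Its lowest, median and highest values were 1931, 2695 and 3213 CPM in misaligned females, against 3950, 4512 and 5240 CPM in misaligned males. In control mice they were 1871, 2584 and 2983 CPM in females, against 3638, 4262 and 5093 CPM in males. Every female liver lay below every male liver, within each treatment and across both.

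Hsd17b4, the peroxisomal multifunctional enzyme of branched chains and bile acids, had 372, 499.5 and 617 CPM as lowest, median and highest values in misaligned females, against 636, 748 and 866 CPM in misaligned males, with no overlap. In control mice it had 328, 504 and 621 CPM in females, against 566, 712 and 812 CPM in males, and 14 of the 18 females lay below the lowest male. Its difference was -0.58 ± 0.06 in misaligned mice (edgeR adjusted p = 1.14e-12) and -0.45 ± 0.06 in control mice (2.53e-09). Pex11a differed by -0.98 ± 0.10 in misaligned mice (1.66e-11) and by -0.66 ± 0.10 in control mice (6.46e-07), by edgeR. It ranged from 80.6 to 278 CPM in misaligned females, against 147 to 414 CPM in misaligned males, and from 74.0 to 260.4 CPM in control females, against 104 to 382 CPM in control males, so the sexes overlapped within each treatment.

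Acsl4 lies on the X chromosome and was lower in females, at -0.71 ± 0.09 in misaligned mice (edgeR adjusted p = 1.92e-09) and -0.59 ± 0.09 in control mice (2.31e-07). Acox2 differed by -0.34 ± 0.06 (2.67e-05) and -0.43 ± 0.06 (3.06e-07) in the same order. Hadhb and Hadha, the subunits of the mitochondrial trifunctional protein, were both lower in females of both treatments. Hadhb differed by -0.35 ± 0.06 in misaligned mice (8.92e-07) and -0.31 ± 0.06 in control mice (1.11e-05). Hadha differed by -0.19 in misaligned mice (0.000747) and -0.13 in control mice (0.024, edgeR), and the control call was lost without control female 04:00 replicate 3 or 16:00 replicate 1 or control male 20:00 replicate 3 (up to 0.0656). Acadm, the medium-chain dehydrogenase, was lower in females in control mice (-0.23 ± 0.08, 0.0198), and this call was lost without control female 04:00 replicate 3 or control male 20:00 replicate 3 (up to 0.0534).

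Hadha and Hadhb are read from opposite strands of chromosome 5 from RefSeq start sites 273 bases apart, and their windows share 228 bases. GENCODE places these gene ends closer, at 30155162 for Hadha and 30155248 for Hadhb. The window of Hadhb (GRCm38.p6, chr5:30155003-30155302, plus strand, capitals for the first 50 transcribed bases) is shown because the genes differ between the sexes in the same direction. It holds most of the space between the RefSeq start sites.
Hadhb: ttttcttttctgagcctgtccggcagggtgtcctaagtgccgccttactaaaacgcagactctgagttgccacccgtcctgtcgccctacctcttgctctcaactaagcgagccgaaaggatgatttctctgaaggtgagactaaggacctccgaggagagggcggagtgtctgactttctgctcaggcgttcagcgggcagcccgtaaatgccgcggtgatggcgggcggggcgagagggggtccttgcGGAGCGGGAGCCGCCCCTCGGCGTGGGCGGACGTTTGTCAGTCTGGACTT

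Ehhadh, the peroxisomal bifunctional enzyme that also handles dicarboxylic acids, went the other way. It had 572, 888 and 1029 CPM as lowest, median and highest values in misaligned females, against 437, 598 and 923 CPM in misaligned males. In control mice it had 489, 873 and 1059 CPM in females, against 410.3, 569 and 935 CPM in males. It was higher in females by 0.41 ± 0.09 log2 in misaligned mice (edgeR adjusted p = 0.000171) and by 0.50 ± 0.09 in control mice (9.3e-06), though the ranges overlapped. Etfb was higher in females by 0.20 ± 0.07 in misaligned (0.0231) and 0.24 ± 0.07 in control mice (0.00859), and the first call was lost without misaligned female 12:00 replicate 3 or misaligned male 00:00 replicate 3 or 16:00 replicate 2 (up to 0.0531). Acsl3 (0.40 ± 0.14, 0.018) and Etfa (0.14 ± 0.05, 0.0385), the other flavoprotein subunit, were called higher in females in control mice by edgeR. In misaligned mice they stood at 0.28 ± 0.14 and 0.07 ± 0.05, and their mean change did not differ between the sexes by the test above (0.981 and 0.971). The call of Etfa was lost without any of 17 of the 36 control livers (up to 0.0798).

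The members called in misaligned mice and not in control mice were Decr1 (-0.32 ± 0.06, 3.94e-05), Acsl1 (-0.38 ± 0.10, 0.00157), Acad11 (-0.21, 0.00162), Acaa1a (-0.34, 0.00556), Acaa2 (-0.20, 0.00699), Acaa1b (-0.36, 0.0102) and Decr2 (-0.16, 0.0248), all lower in females by edgeR. Decr2 lost this call without misaligned female 16:00 replicate 3 or misaligned male 00:00 replicate 1 (up to 0.0751). The test of a different mean change between the sexes called 0 of these 7. Acaa1a and Acaa1b are near-identical copies, 96.0% identical over 1450 aligned transcript bases, and the mean count of Acaa1a was 6826 with ambiguous reads, against 3384 uniquely assigned. With ambiguous reads counted, the sex difference of Acaa1a in misaligned mice (0.168) and its clock-time change in males (0.093) were not called by edgeR. Their levels are therefore uncertain, as is that of Etfb, with 2828 counts against 1071 unique ones.

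Hepatocyte markers also differed in level between the sexes: the 7 genes summed to a median of 107300 CPM in misaligned females, 84910 in misaligned males, 110100 in control females and 83920 in control males. The ranges were 88770 to 138500, 71480 to 110000, 88410 to 122700 and 73300 to 116000 CPM in that order. Stellate cell and fibroblast markers summed to medians of 492, 629, 448 and 792 CPM, and cholangiocyte markers to 104, 142, 104 and 178 CPM, in the same order. Kupffer cell and macrophage markers summed to medians of 660.1, 507, 675 and 510 CPM, and endothelial markers to 244, 179.7, 232 and 193 CPM, in that order. The part of these in the sex differences was not tested.

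Genes of the same pathway outside the members were read from 4 lists, chosen with earlier results known. Of 10 genes of carnitine entry and ketogenesis, 3 changed rhythm in males and 0 in females by edgeR, against 9.23% and 0.192% of all genes. None of the 10 was called rhythmic in misaligned males at stated clock times. Cpt1a, the gatekeeper of mitochondrial entry, had its fitted peak at 20.4 ± 2.14 h in misaligned males and 9.67 ± 0.59 h in control males (edgeR adjusted p = 0.000205). The carnitine importer Slc22a5 (0.000997) and the carnitine carrier Slc25a20 (0.0156) changed as well. The changes of Cpt1a (0.0183) and Slc22a5 (0.0383) differed between females and males by edgeR. Cpt1a was lower in females, at -0.65 ± 0.07 log2 in misaligned mice (1.33e-10) and -0.34 ± 0.07 in control mice (0.000132).

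Of 11 further peroxisomal genes, 4 changed rhythm in males, where 9.23% of all genes did. Among them were Hacl1 (edgeR adjusted p = 0.00156), Amacr (0.00213) and Slc27a2 (0.0117). In misaligned mice 9 of the 11 differed between the sexes, 4 higher and 5 lower in females, where 37.7% of all genes differed, and Hacl1, an enzyme of phytanic acid breakdown, was higher in females by 1.29 ± 0.13. Of 8 other acyl-CoA enzymes, 7 were tested and 0 changed rhythm in either sex. Of 12 regulators and reporters, 3 changed rhythm in males (Rxra, Sirt3 and Hmgcs1) and 1 in females, Hmgcs1 (0.042, edgeR), an enzyme of cholesterol synthesis. By molecular time, 0 genes of the 4 lists changed rhythm in either sex, and 0 changed in mean level in either sex, by edgeR.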

How the data were processed

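Poly(A) RNA of 72 whole livers was sequenced with a stranded kit in paired-end reads of 150 bp, per the labels' protocols. The authors deposited whole-number read counts per gene and per intron, and STAR 2.6.0c and GRCm38 are named in the submitters' processing notes. The sense counts restricted to reads of 1 gene were used, and the version with ambiguous reads was an alternative. Columns were assigned to samples from their names, with 0 left over. The fits used edgeR 4.0.16 (R 4.3.3) with filterByExpr over the 24 groups, TMM scaling (factors 0.836 to 1.17) and the quasi-likelihood test in its robust form, on all 72 libraries. Rhythms were a cosine and a sine of 24 h in each sex and treatment (60 residual degrees of freedom), and mean contrasts came from 24 group means (48). The Benjamini-Hochberg adjustment of the 2-sided p-values ran over all genes tested, with calls at 0.05. Intron counts were summed per gene (11258 tested). CPM used effective library sizes. Gene lengths came from GENCODE, and start site windows from RefSeq.

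The members, the lists, the tests and the alternatives were chosen with earlier results of these data known. Named in each comparison were the called members with the smallest p, or the 3 smallest p where fewer than 3 were called, and the highest and lowest levels. Values by liver are printed for some of these. The scripts were tested on simulated data. Alternatives were DESeq2 1.42.0 and its size factors, other filters, ambiguous reads, a replicate block, fits on fewer libraries, and a test across the 6 clock times. Some genes of the pathway lists are not reported here.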

Additional observations from a re-analysis of the deposited data

Results flagged for a closer look

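The rhythm change of Pex11a with misalignment differed between females and males (edgeR quasi-likelihood interaction test, Benjamini-Hochberg adjusted p = 0.0222). The call was lost with a test across the 6 clock times (0.0999) and without replicate number 1 (0.137), 2 (0.349) or 3 (0.115). Its fitted peak was at 10.8 h in misaligned females and 12.4 h in control females, and at 19.9 h in misaligned males and 12.1 h in control males. By molecular time the peaks were at 13.0 h in misaligned females and 12.8 h in control females, and at 12.5 h in misaligned males and 12.0 h in control males.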

How the results depend on the processing

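No called mean difference reversed direction, while the rhythm and clock-time tests carry no sign and could not show a reversal. Of 85 single member results, 28 kept their side of the threshold under each alternative other than a left-out library. Counts of called members that moved by over 1.5 times were as follows, and the cause was not tested. With DESeq2, changed rhythm in females was 1, its sex difference 3, misaligned rhythm between the sexes 8, intron rhythm in control females 2 and intron change in males 3. With a mean of at least 5 CPM, control female rhythm was 11, changed rhythm in females 1 and its sex difference 3. With a test across the 6 clock times, rhythm was 4 in misaligned females and 3 in control males, changed rhythm in males 7 and its sex difference 0. Without a filter, the male clock-time count was 4 and intron rhythm in control females 0, and that clock-time count was 2 with only the libraries compared. Intron rhythm in control females was 2 with ambiguous reads, and intron change in males was 2 with DESeq2's size factors. Leaving out 1 library, or the livers of 1 replicate number (24 of 72), gave 3 to 10 for misaligned female rhythm, 2 to 11 for control female rhythm, 1 to 7 for control male rhythm, 0 to 1 for changed rhythm in females, 0 to 9 for changed rhythm in males, 0 to 3 for its sex difference, 3 to 10 for misaligned rhythm between the sexes, and 0 to 9 for male clock-time change. It gave 5 to 13 and 0 to 8 for molecular-time rhythm in misaligned females and males, 8 to 14 for control sex differences and 10 to 18 for misaligned ones. Leaving out a replicate number gave 0 to 0 for each intron count called and for the sex difference of the rhythm change. With 1 control curve over both sexes, molecular-time rhythm in misaligned males was 7. The replicate numbers did not pair the livers (median correlation of same-numbered deviations -0.03, 9 of 36 above 0.1). The fit with the replicate block left changed rhythm in males at 4 and changed no other count of members. Depth and 3 livers per time limit what can be seen: a fitted amplitude had an SE between 0.04 and 0.14.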
